A study of Mus musculus with 9 samples.

Results

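The genes described here are 10 members of the SOX family of transcription factors, Sox1, Sox2, Sox3, Sox4, Sox5, Sox6, Sox8, Sox9, Sox11 and Sox21, out of 48526 genes in the count table. They were chosen by name, through the Ensembl identifiers that carry these symbols, and all 10 passed the filter on low counts that left 18858 genes for testing. The cells were neural stem cells (NSCs) isolated from the subependymal zone (SEZ) of adult wild-type C57BL/6 mice (C57BL/6J in the study's methods) aged 2 to 4 months and expanded as neurospheres with EGF and FGF. Differentiation was induced in dissociated cells on Matrigel with FGF but no EGF, and RNA was taken at the start (0 h) and after 1 h and 6 h. For early times the study's methods describe a day on the plate in medium with both factors before treatment, in a passage on fixed cells, and they do not say whether this held for the RNA samples. There were 9 libraries, 3 per time point. All groups are therefore passaged cultures and not tissue, no group carried a transgene or a mutation, and no time-matched culture kept with EGF was analysed here, so that time in culture and the loss of EGF cannot be told apart. The sources used here do not say whether the replicates were separate cultures or animals, so the p-values measure the spread between these libraries only.

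SOX proteins bind DNA through a high-mobility-group (HMG) box that sits in the minor groove and bends the helix, and they usually act with partner factors. SOXB1 proteins (Sox1, Sox2 and Sox3) keep neural progenitors undifferentiated, and Sox21, of the SOXB2 group, is known mainly as a repressor of genes that SOXB1 factors activate. SOXC proteins (Sox4 and Sox11) promote neuronal differentiation, SOXD proteins (Sox5 and Sox6) have no activation domain of their own and modulate other SOX factors, and SOXE proteins (Sox8 and Sox9) act in gliogenesis and in NSC maintenance. The comparison of 1 h and 6 h with 0 h asks which of these regulators change their transcript level when NSCs begin to differentiate.

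The feature that makes these 10 genes a family can be read in their coding sequence. The longest stretch that all 10 proteins have in common, residue for residue, covers 10 residues near the start of the HMG box, and its 30 bases are given here from GENCODE M21 transcripts (GRCm38), on the coding strand of each gene. Sox2 is the reference, and capitals in the other members mark bases that differ from it, so that every capital is a change that leaves the protein the same.
Sox2 (chr3:34650545-34650574, plus strand): aagaggcccatgaacgccttcatggtatgg
Sox1 (chr8:12396514-12396543, plus strand): aagCggcccatgaacgccttcatggtGtgg
Sox3 (chrX:60892969-60892998, minus strand): aagCgAcccatgaacgcGttcatggtGtgg
Sox21 (chr14:118235582-118235611, minus strand): aagCggcccatgaacgccttcatggtGtgg
Sox4 (chr13:28952815-28952844, minus strand): aagCggcccatgaacgccttTatggtGtgg
Sox11 (chr12:27342232-27342261, minus strand): aaACggcccatgaacgccttcatggtGtgg
Sox5 (chr6:143841247-143841276, minus strand): aagCgTccAatgaaTgccttcatggtGtgg
Sox6 (chr7:115489736-115489765, minus strand): aagCgAccAatgaaTgcGttcatggtTtgg
Sox8 (chr17:25570196-25570225, minus strand): aagCggcccatgaaTgccttcatggtGtgg
Sox9 (chr11:112782900-112782929, plus strand): aagCgAcccatgaacgccttcatggtGtgg

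The stretch lies in a coding exon in each member, and the number of differing bases runs from 2 in Sox1 and Sox21 to 6 in Sox6. Over the whole box, taken as 76 residues or 228 bases, the 6 pairs within a SOX group shared between 89.5% and 98.7% of residues, with a median of 94.05%. The 39 pairs between groups shared between 48.7% and 93.4%, with a median of 61.8%, and the high values among them were those of Sox21 with the SOXB1 members. Sox1, Sox2, Sox3, Sox4, Sox11 and Sox21 have 1 exon in the annotation, Sox8 and Sox9 have 3, Sox5 has 15 and Sox6 has 16. In the 4 genes with introns the box is split between exons.

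**Figure D1:**
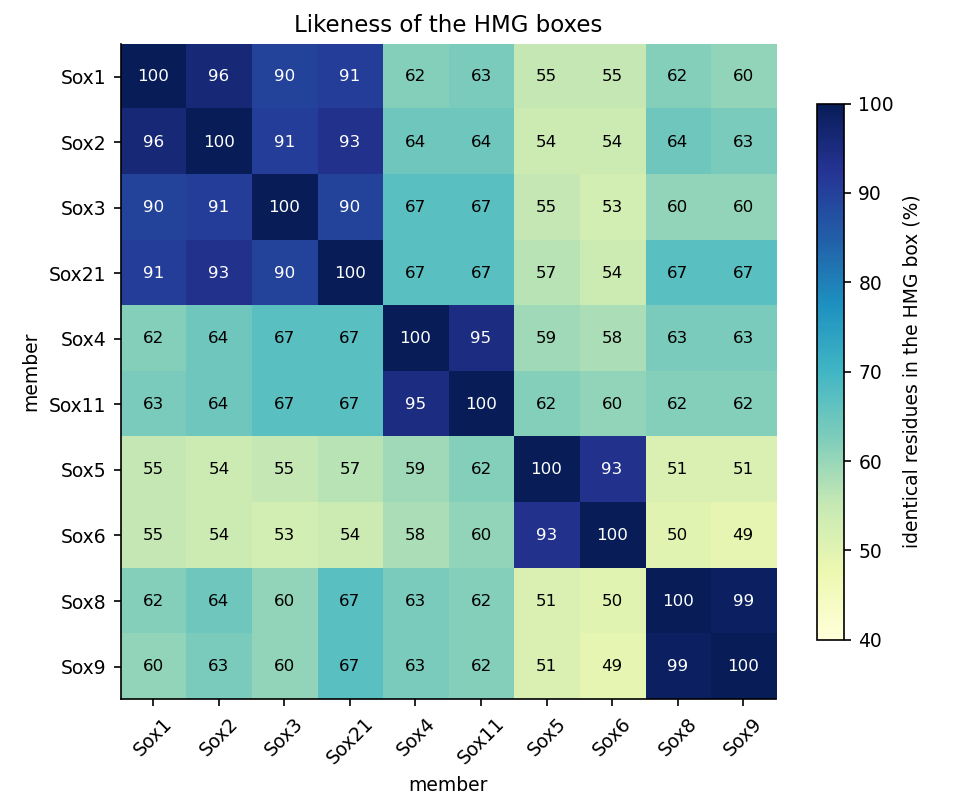
Identical residues, in percent, between the HMG boxes of each pair of the 10 members, over 76 aligned residues (both axes: members, ordered by SOX group; colour: percent identity). The dark blocks on the diagonal are the SOX groups, with 98.7% for Sox8 and Sox9 and 94.7% for Sox4 and Sox11, and Sox21 joins the SOXB1 block.

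Depth was between 65871454 and 105592597 counts per library. The members were well covered, with between 2103 counts (Sox1, 0 h, replicate 2) and 29134 counts (Sox6, 6 h, replicate 3) in a library. Libraries with the same replicate number deviated together, and the test used the number as a block. Its biological coefficient of variation was 0.0627, against 0.277 without the block. The quasi-likelihood test of edgeR with this block gave every adjusted p below, unless another fit is named. It was adjusted by the method of Benjamini and Hochberg across 18858 genes, and a change was called where it was under 0.05. The edgeR value without the block is given, or the loss stated, where it ends a call. The study compared time points with DESeq2, and its methods name no block. Calls of members by DESeq2 without the block are therefore given too.

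Levels are given as CPM, the counts of a gene scaled to a common library size. Of 12 stem and progenitor markers all were at or above 1 CPM on average, and their sum stayed between 7990 and 10500 CPM in the 9 libraries. Of 11 neuronal markers 8 reached 1 CPM, and their sum ranged from 53.9 to 95.9 CPM in the 0 h libraries, from 59.1 to 99.7 CPM in those of 1 h and from 91.7 to 151 CPM in those of 6 h. Syt1 had the largest increase among them, with means of 22.8 CPM at 0 h and 70.3 CPM at 6 h, and gave most of the rise. Tubb3, Rbfox3, Nrxn3, Snap25 and Gad2 also had higher means at 6 h than at 0 h. The means of Dcx, Stmn2, Dlx1, Dlx2 and Gad1 were lower at 6 h. The 7 markers of oligodendrocyte progenitors had sums of 1690 to 2290 CPM (0 h), 1840 to 2200 CPM (1 h) and 2180 to 2520 CPM (6 h). Most of this was Olig1, with means of 1230 CPM at 0 h and 1350 CPM at 6 h, and Olig2, at 633 and 773 CPM. Sox10, a defining gene of that lineage, was at a mean of 0.0893 CPM at 0 h and 0.21 CPM at 6 h. The sum of the 4 pericyte and smooth muscle markers went the other way, nearly all through Acta2. It was 52.3 to 95.5 CPM (0 h), 63.4 to 109 CPM (1 h) and 33.1 to 47.1 CPM (6 h). Rgs5 also had a lower mean at 6 h than at 0 h. The means of Pdgfrb (0.165 CPM at 0 h and 2.12 CPM at 6 h) and Myh11 (0.471 and 1.2 CPM) were higher at 6 h. The 4 ependymal markers, nearly all Foxj1, had sums of 47.3 to 88.5 CPM (0 h), 52.5 to 93.3 CPM (1 h) and 38.5 to 60.1 CPM (6 h). The 6 astrocyte markers summed to 697 to 944 CPM (0 h) and 870 to 1080 CPM (6 h), with Gfap near 1 CPM. Most of this was Aldoc, with means of 572 CPM at 0 h and 705 CPM at 6 h. Aldh1l1 (140 and 149 CPM), S100b and Aqp4 had slightly higher means at 6 h. The means of Gja1 (135 and 134 CPM) and Gfap (1.31 and 0.887 CPM) were not higher. Those of mature oligodendrocytes, 6 genes, summed to 49.0 to 84.7 CPM (0 h) and 66.3 to 118 CPM (6 h). Most of this was Cnp, with means of 61.4 CPM at 0 h and 83.4 CPM at 6 h, and Mbp, Mog, Mag and Mobp had means under 1 CPM. Microglial markers summed to at most 0.334 CPM, with C1qa at 0 in all libraries, and endothelial markers to at most 4.24 CPM. The part of these other cell types in the SOX differences was not tested, and in bulk samples fewer cells of a type and less RNA per cell cannot be told apart.

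At 1 h, 4 of the 10 members were called. Sox4, Sox9 and Sox1 rose and Sox8 fell. Of all tested genes 1.36% were called higher and 2.14% lower at this time point. At 6 h against 0 h, 7 members were called, Sox4, Sox8, Sox6, Sox9, Sox1 and Sox5 upwards and Sox21 downwards, where 17.4% of all tested genes were called higher and 17.5% lower. Between 1 h and 6 h, 4 members were called, Sox8, Sox6 and Sox5 upwards and Sox21 downwards, and 18.0% of all genes were called higher and 17.5% lower (35.6% in all), so the share of members called was near that of all genes. Sox2, Sox3 and Sox11 were called in none of these comparisons, which share libraries. The median absolute log2 fold change of the members was 0.165 at 1 h and 0.281 at 6 h against 0 h, beside 0.112 and 0.202 for all tested genes. From 1 h to 6 h it was 0.0874, below the 0.208 of all tested genes.

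Without the block the calls were fewer. No member was called at 1 h, where 3 had an unadjusted p under 0.05, and only 0.0424% of all genes were called. By 6 h, Sox4 and Sox8 were called against 0 h, with 2.42% of all genes, and at 6 h against 1 h Sox8 alone, with 2.14%. DESeq2 with the block called 4, 7 and 4 members in these 3 comparisons, beside 7.16%, 33.1% and 34.8% of all genes it gave an adjusted p. Without the block DESeq2 called 2 members in each, beside 0.338%, 8.76% and 8.34% of all genes. They were Sox4 and Sox8 at 1 h and at 6 h against 0 h. At 6 h against 1 h they were Sox8 and Sox6.

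**Figure D2:**
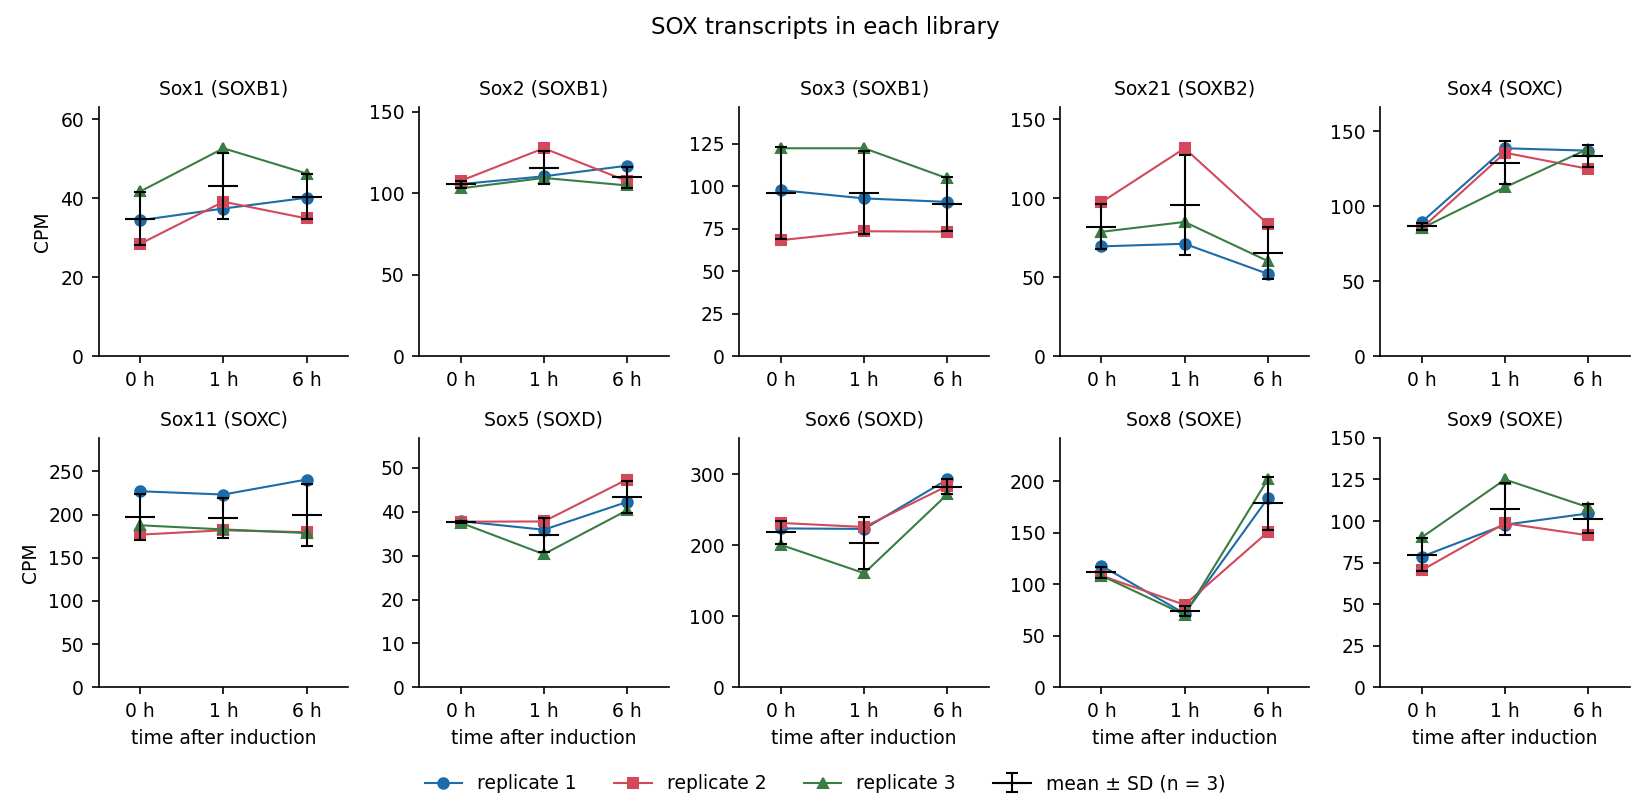
Level of each SOX member in each library (vertical axis: CPM after TMM scaling, from 0; horizontal axis: time after induction; coloured lines: replicates 1 to 3; black: mean ± SD, n = 3). Sox8 dips at 1 h and is highest at 6 h in every replicate, Sox4 is higher at 1 h and 6 h than at 0 h, and the replicate lines of Sox3 and Sox21, and replicate 1 of Sox11, stay apart from the others.

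The member that moved furthest was Sox8. It encodes a SOXE factor of glial and neural crest lineages. In replicates 1, 2 and 3 its level was 118, 108 and 108 CPM at 0 h, 71.5, 80.0 and 70.4 CPM at 1 h, and 183, 150 and 202 CPM at 6 h. The 3 time points did not overlap, and every replicate fell and then rose above its start. The fall at 1 h was 0.59 on the log2 scale (log2 fold change -0.59, SE 0.09, adjusted p = 0.00237, and adjusted p = 0.324 without the block). DESeq2 without the block called this fall (adjusted p = 0.00794). The rise at 6 h over 0 h was 1.60-fold (log2 0.67, SE 0.09, adjusted p = 7.57e-05), and that over 1 h was 2.40-fold (log2 1.26, SE 0.09, adjusted p = 5.83e-07). These 2 rises were also called without the block (adjusted p = 0.0266 and 0.00348), and all 3 calls held with any single library left out.

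Sox9, a SOXE factor that acts in NSC specification and in astrocyte formation, did not follow Sox8. It was at 78.6, 70.4 and 90.2 CPM at 0 h, 97.8, 98.7 and 125 CPM at 1 h, and 105, 91.4 and 108 CPM at 6 h. All values at 1 h and 6 h lay above those at 0 h. Sox9 rose by 1.34-fold at 1 h (log2 0.43, SE 0.06, adjusted p = 0.00118) and was 1.28-fold above 0 h at 6 h (log2 0.35, SE 0.06, adjusted p = 0.000454). Neither call was made without the block (adjusted p = 0.935 and 0.205). From 1 h to 6 h the log2 fold change was -0.07 (SE 0.06, adjusted p = 0.345).

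The contrast between both SOXE transcripts is shown with their boxes, because these differ in 1 residue of 76 (98.7% identity) and in 32 of 228 bases (86.0% identity). The exons are joined, on the coding strand, from chr17:25568955-25570231 (minus strand) for Sox8 and chr11:112782894-112783914 (plus strand) for Sox9, and capitals mark the bases of Sox9 that differ from Sox8.
Sox8: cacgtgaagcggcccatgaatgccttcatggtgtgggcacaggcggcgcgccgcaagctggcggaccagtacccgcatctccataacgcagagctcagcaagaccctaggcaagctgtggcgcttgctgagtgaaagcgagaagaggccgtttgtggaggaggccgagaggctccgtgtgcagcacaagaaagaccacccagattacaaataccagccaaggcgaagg
Sox9: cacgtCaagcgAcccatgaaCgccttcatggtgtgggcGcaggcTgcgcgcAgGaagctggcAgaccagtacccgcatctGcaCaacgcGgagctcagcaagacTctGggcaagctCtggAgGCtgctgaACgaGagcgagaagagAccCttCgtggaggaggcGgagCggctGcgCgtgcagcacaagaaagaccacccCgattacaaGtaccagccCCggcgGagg

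As a share of the summed SOXE level per kilobase of exon, Sox8 made up 66.6%, 67.1% and 61.4% in the 3 replicates at 0 h, 49.2%, 51.8% and 42.8% at 1 h, and 69.9%, 68.6% and 71.2% at 6 h. The 3 time points did not overlap. Both genes were at nearly the same level at 1 h, and Sox8 was the larger at 0 h and 6 h. Summed over both genes, the level per kilobase was 55.1 ± 2.85 CPM (SD, n = 3) at 0 h, 49.6 ± 3.12 CPM at 1 h and 81.7 ± 10.4 CPM at 6 h. With no division by length the shares of Sox8 were lower, at means of 58.4%, 41.0% and 63.6%, in the same order.

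**Figure D3:**
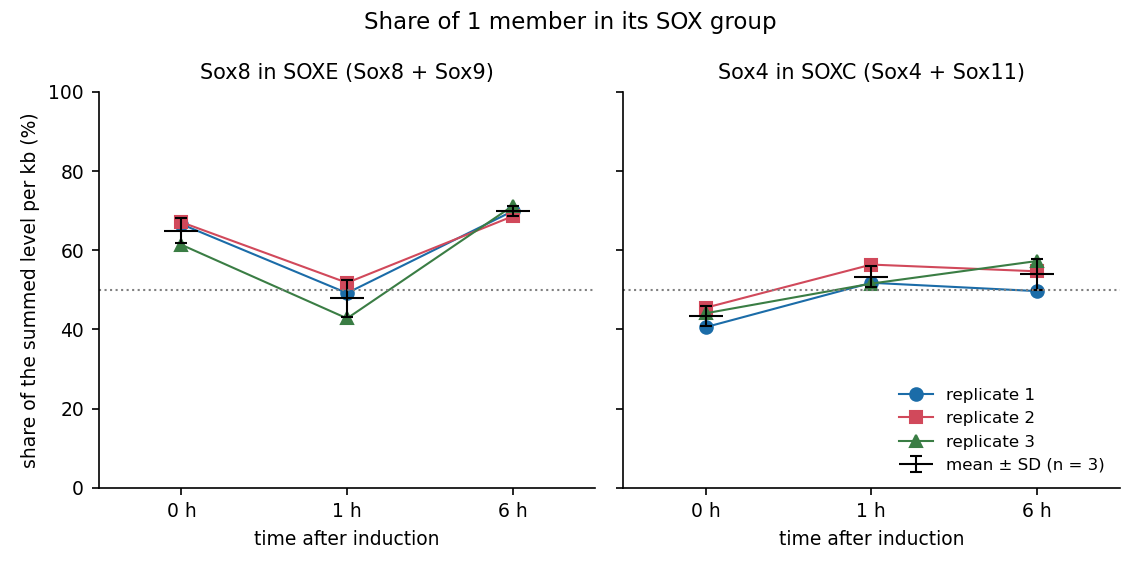
Share of Sox8 in the SOXE level (left) and of Sox4 in the SOXC level (right), in percent of the summed CPM per kilobase of both members (vertical axis, from 0; horizontal axis: time; coloured lines: replicates; black: mean ± SD, n = 3; dotted line: 50%). Sox8 drops from a mean of 65.0% to 47.9% and returns to 69.9%, and Sox4 goes from 43.4% to 53.3% and 53.9%.

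Sox4, a SOXC factor that activates pan-neuronal genes, rose within the first hour and stayed up. Its level was 89.5, 85.3 and 85.3 CPM at 0 h, 139, 136 and 113 CPM at 1 h, and 137, 125 and 138 CPM at 6 h. No value at 1 h or 6 h reached down to the range at 0 h. The rise was 1.49-fold at 1 h (log2 0.57, SE 0.07, adjusted p = 0.000408, and adjusted p = 0.169 without the block) and 1.54-fold at 6 h (log2 0.62, SE 0.07, adjusted p = 1.78e-05, and adjusted p = 0.0191 without the block). DESeq2 without the block called the rise at 1 h (adjusted p = 0.000283) and at 6 h (adjusted p = 5.54e-06). Between 1 h and 6 h the log2 fold change was 0.05 (SE 0.07, adjusted p = 0.587). Both calls held with any single library left out.

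Sox11, the other SOXC member and a marker of young neurons, was at 227, 177 and 188 CPM at 0 h, 223, 182 and 183 CPM at 1 h, and 241, 179.6 and 179 CPM at 6 h. Replicate 1 was the highest at each time point, and the ranges of the time points overlapped. The log2 fold changes were -0.01 at 1 h and 0.01 at 6 h (SE 0.05 each, adjusted p = 0.956 and 0.876). In this fit, changes of the size seen for Sox4 thus lay many standard errors away. Without the block the SE was larger, at 0.15 in both comparisons, and such changes lay fewer standard errors away. The boxes of both genes differ in 4 residues (94.7% identity) and in 22 of 228 bases (90.4% identity), and are given from chr13:28952623-28952850 for Sox4 and chr12:27342040-27342267 for Sox11, both on the minus strand, with capitals where Sox11 differs from Sox4.
Sox4: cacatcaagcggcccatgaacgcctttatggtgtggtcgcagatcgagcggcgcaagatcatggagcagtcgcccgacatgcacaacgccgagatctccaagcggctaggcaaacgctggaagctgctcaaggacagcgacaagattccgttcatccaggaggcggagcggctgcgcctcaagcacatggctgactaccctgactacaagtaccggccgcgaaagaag
Sox11: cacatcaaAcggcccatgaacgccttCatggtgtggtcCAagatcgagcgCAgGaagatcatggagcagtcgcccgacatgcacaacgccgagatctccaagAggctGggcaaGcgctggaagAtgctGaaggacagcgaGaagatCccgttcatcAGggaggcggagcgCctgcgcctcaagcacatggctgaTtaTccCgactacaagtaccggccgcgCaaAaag

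Sox4 made up 40.6%, 45.5% and 44.1% of the SOXC level per kilobase in the 3 replicates at 0 h, 51.8%, 56.4% and 51.6% at 1 h, and 49.7%, 54.7% and 57.3% at 6 h. All 6 later values lay above those at 0 h. With no division by length Sox11 stayed the larger member at all time points, with means for Sox4 of 30.7%, 39.7% and 40.3%.

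The SOXD members Sox5 and Sox6, coiled-coil proteins that work as dimers and modulate glial and neuronal differentiation in the developing brain, moved late. Sox6 was at 224, 232 and 201 CPM at 0 h, 223, 226 and 161 CPM at 1 h, and 293, 284 and 272 CPM at 6 h. Its values at 6 h lay above all earlier ones, while the ranges at 0 h and 1 h overlapped. Sox6 rose by 1.30-fold from 0 h to 6 h (log2 0.37, SE 0.07, adjusted p = 0.00117) and by 1.41-fold from 1 h to 6 h (log2 0.49, SE 0.07, adjusted p = 0.000172). Without the block edgeR called neither (adjusted p = 0.178 and 0.106). DESeq2 without the block called the rise from 1 h (adjusted p = 0.0366) but not that from 0 h (adjusted p = 0.134). At 1 h the log2 fold change was -0.12 (SE 0.07, adjusted p = 0.408), of which replicate 3 had the largest part at -0.32, and without the 1 h library of that replicate the value was near 0. Gene counts do not separate spliced from unspliced reads, so intron retention in Sox6 was not measured here.

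Sox5 was at 37.9, 37.8 and 37.5 CPM at 0 h, 35.9, 37.8 and 30.3 CPM at 1 h, and 42.2, 47.4 and 40.3 CPM at 6 h. The values at 6 h were the highest, by a small margin. The rise from 1 h was 1.25-fold (log2 0.32, SE 0.06, adjusted p = 0.00165, and adjusted p = 0.136 without the block). The rise from 0 h was 1.15-fold (log2 0.20, SE 0.06, adjusted p = 0.0282, and adjusted p = 0.346 without the block). The second call was lost without replicate 1 or 2 at 0 h, or replicate 2 or 3 at 6 h, where adjusted p lay between 0.0581 and 0.205. Sox6 made up 84.9%, 84.9% and 86.4% of the SOXD level per kilobase on average at 0 h, at 1 h and at 6 h.

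Of the SOXB1 members, Sox2 and Sox3 were not called in the main fit, and Sox1 was called higher at 1 h and at 6 h than at 0 h. Sox2, a defining factor of NSCs, was at 105.5, 108 and 103 CPM at 0 h, 110.3, 128 and 109 CPM at 1 h, and 117, 107 and 105 CPM at 6 h. Its values at 1 h lay just above those at 0 h in each replicate, and those at 6 h overlapped both. The log2 fold changes were 0.13 at 1 h (SE 0.06, adjusted p = 0.247) and 0.06 at 6 h (SE 0.06, adjusted p = 0.488).

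Sox3, on the X chromosome, was at 97.7, 68.2 and 122 CPM at 0 h, 92.8, 73.5 and 122 CPM at 1 h, and 90.7, 73.2 and 105 CPM at 6 h. The order of the replicates was the same at each time point, with replicate 2 the lowest and replicate 3 the highest. The log2 fold changes were 0.01 at 1 h and -0.08 at 6 h (SE 0.06 each, adjusted p = 0.953 and 0.359). Sox3 has the highest GC content of the 10 members, at 66.4%. Trends with GC content and with the length of the longest transcript were also taken out of every library. The log2 fold change of Sox3 at 6 h was then -0.22 (SE 0.04, adjusted p = 0.00167).

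Sox1, which marks activated neural progenitors, was at 34.4, 28.4 and 41.7 CPM at 0 h, 37.4, 39.1 and 52.6 CPM at 1 h, and 40.1, 34.8 and 46.2 CPM at 6 h. Every replicate was above its own start at both later times, although the ranges overlapped. The rise was 1.24-fold at 1 h (log2 0.31, SE 0.07, adjusted p = 0.0234) and 1.16-fold at 6 h (log2 0.22, SE 0.07, adjusted p = 0.0216). Without the block neither was called (adjusted p = 1.0 and 0.632). The call at 1 h was lost without any of the 0 h libraries or without replicate 2 or 3 at 1 h, where adjusted p reached 0.204. The call at 6 h was lost without 0 h replicate 2 or 3, without 6 h replicate 1 or 2, and once GC and length trends were taken out (log2 0.13, adjusted p = 0.131).

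Sox21 was the only member called lower at 6 h than at 0 h. Its level was 69.5, 97.5 and 78.7 CPM at 0 h, 71.2, 132 and 85.0 CPM at 1 h, and 52.1, 83.7 and 60.2 CPM at 6 h. Replicate 2 was the highest at each time point, so the ranges overlapped, but each replicate was lowest at 6 h. The decrease was 0.34 on the log2 scale from 0 h (log2 fold change -0.34, SE 0.07, adjusted p = 0.00144) and 0.54 from 1 h (log2 fold change -0.54, SE 0.07, adjusted p = 5.49e-05). Both calls held with any single library left out and neither held without the block (adjusted p = 0.596 and 0.316). At 1 h the log2 fold change was 0.20 (SE 0.07, adjusted p = 0.139), and replicate 2 alone gave 0.43.

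**Figure D4:**
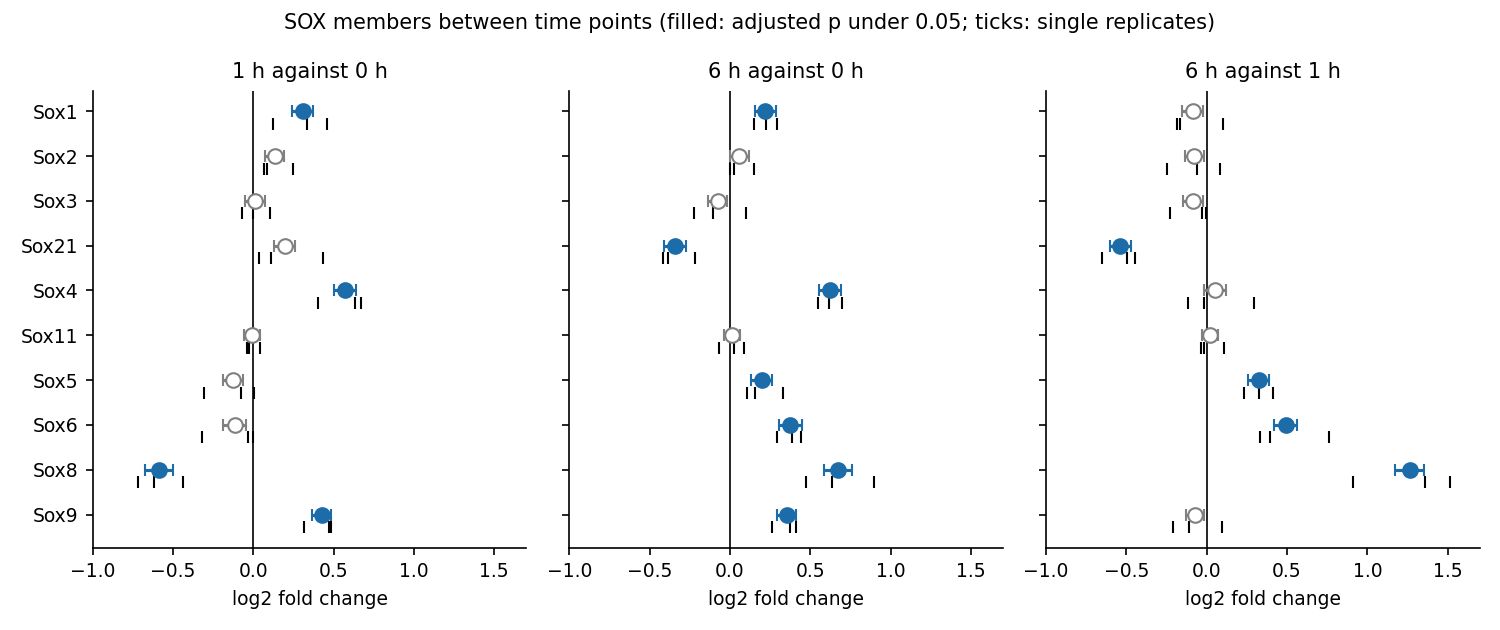
Log2 fold change of each member in the 3 comparisons (horizontal axis; points: fit of edgeR with the replicate block; bars: ± 1 SE; filled points: adjusted p under 0.05; ticks under the points: the 3 replicates, each against its own earlier library). Sox8 is at -0.59 at 1 h and 0.67 at 6 h, while Sox4 and Sox9 sit to the right of 0 at both times and Sox2, Sox3 and Sox11 are open in all panels.

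Levels between genes were compared as CPM per kilobase of exon. At 0 h Sox2 was at 51.2 ± 1.11, Sox3 at 46.5 ± 13.1 and Sox8 at 35.8 ± 1.78 (SD, n = 3), and Sox3 overlapped both of its neighbours. Sox11, Sox21, Sox9 and Sox4 followed between 23.7 ± 3.18 and 18.1 ± 0.497, and each overlapped the next. Sox6 (14.7 ± 1.09), Sox1 (7.21 ± 1.37) and Sox5 (2.62 ± 0.0128) came last and overlapped neither each other nor Sox4. Sox2, Sox3 and Sox8 thus stood above the other 7, and the range from Sox2 to Sox5 was 19.5-fold. This range depends on the length used. With the longest transcript it was 9.84-fold at 0 h. With no division by length Sox6 and Sox11 ranked first, Sox2 no longer led and the range was 6.28-fold. At 6 h Sox8 had the highest mean, at 57.2 ± 8.29 against 53.3 ± 3.1 for Sox2, and their ranges overlapped. At 1 h Sox4, Sox9, Sox21, Sox8 and Sox11 lay between 26.9 ± 2.96 and 23.6 ± 2.84, and each overlapped its neighbour in the order. Sox6 has many transcripts, and with the length of its longest one it ranked 4 instead of 8 at 0 h.

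The 10 members differed in how much of their variation followed time. In a division of the sum of squares of log2 CPM over the 9 libraries, time point took 95.1% for Sox8 and 91.0% for Sox4, and 68.3%, 65.6% and 63.5% for Sox6, Sox5 and Sox9. Replicate number took 96.1% for Sox11, 93.9% for Sox3, 64.2% for Sox1 and 60.5% for Sox21. The medians of all tested genes were 26.9% for time point and 48.9% for replicate number. For Sox2, time point took 36.2%, replicate number 24.2% and neither of them 39.6%. The replicate that stood highest was not the same: replicate 3 for Sox3 and Sox1, replicate 1 for Sox11 and replicate 2 for Sox21. Sox3 and Sox21 differed 1.62-fold between the highest and the lowest replicate mean, and Sox11 1.28-fold.

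**Figure D5:**
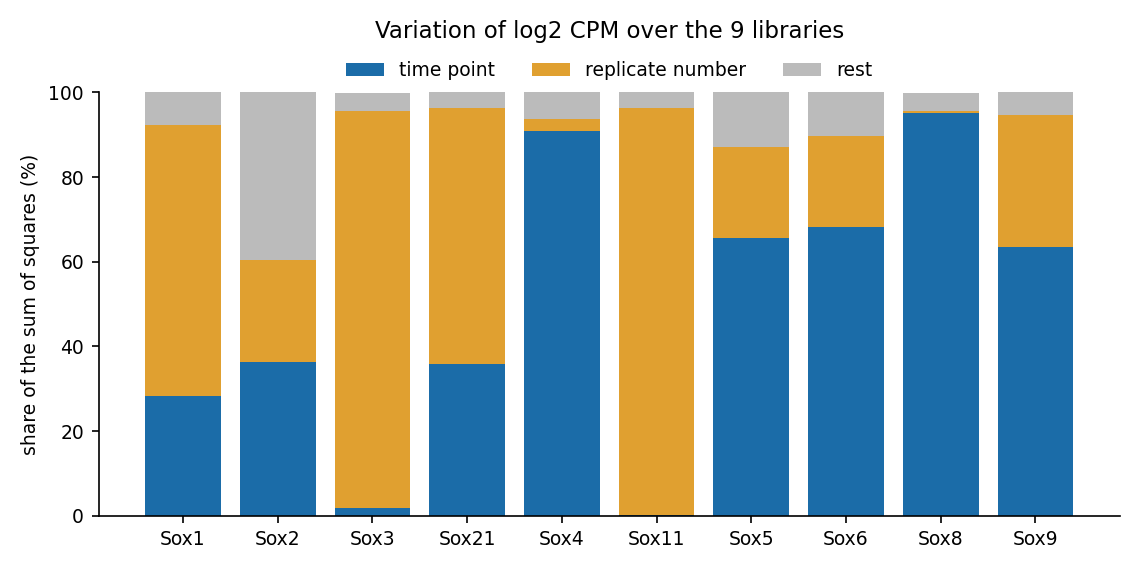
Share of the sum of squares of log2 CPM over the 9 libraries that goes with time point, with replicate number and with neither, for each member (vertical axis: percent, from 0). Sox8 and Sox4 are nearly all time point (95.1% and 91.0%), and Sox11 and Sox3 are nearly all replicate number (96.1% and 93.9%).

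With each replicate centred on its own mean, the members fell into a few time courses, given here as Pearson's r over the 9 libraries, which share scaling and, by replicate number, part of their variation. Sox8, Sox6 and Sox5 went together (r = 0.929 for Sox6 with Sox8 and 0.917 for Sox5 with Sox6), lowest at 1 h and highest at 6 h on average. Sox21 mirrored them (r = -0.897 with Sox8). Sox1, Sox9 and Sox4 formed the course that was up at 1 h and stayed up (r = 0.963 for Sox1 with Sox9, 0.866 for Sox4 with Sox9 and 0.775 for Sox1 with Sox4). Sox2, which was not called, was about as close to Sox1 (r = 0.802) and to Sox9 (r = 0.724). Sox8 and Sox9 were nearly unrelated (r = -0.123). Among all tested genes with a mean of at least 10 CPM, those most like Sox8 were 9330159F19Rik (r = 0.998), Ddx58 (r = 0.997), which encodes the RNA sensor RIG-I, and Znfx1 (r = 0.996). Those most like Sox6 were Acaca (r = 0.996), the acetyl-CoA carboxylase of fatty acid synthesis, Polr2a (r = 0.994), the large subunit of RNA polymerase II, and Pcdhga6 (r = 0.994). The nearest gene was Igsf8 for Sox9 (r = 0.996), Nup133 for Sox21 (r = 0.995), Kctd12b for Sox5 (r = 0.991), Leprot for Sox1 (r = 0.978) and Ppp1r3c for Sox4 (r = 0.974). With so many genes and 3 time points, very high values are usual, and they describe shared time courses only.

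Of 10 other SOX genes, 5 were high enough to be tested. Sox12, the remaining SOXC gene, was at 50.2 ± 6.76 CPM (SD, n = 3) at 0 h, 47.2 ± 3.77 CPM at 1 h and 39.6 ± 5.50 CPM at 6 h, and fell by 0.34 at 6 h on the log2 scale (SE 0.06, adjusted p = 0.00124, and adjusted p = 0.22 without the block), where Sox4 rose. Sox13, the remaining SOXD gene, was at 18.5, 16.4 and 18.2 CPM and was not called. Sox10, the SOXE gene of the oligodendrocyte lineage, was called higher at 6 h (log2 1.20, SE 0.43, adjusted p = 0.0472) at levels of at most 0.327 CPM. Sox7 was called higher at 1 h (log2 1.94, SE 0.36, adjusted p = 0.0106) and lower again at 6 h against 1 h, at no more than 0.806 CPM in a library. None of these calls from few counts was made without the block, and DESeq2 with the block gave no adjusted p for Sox7 at 1 h or for Sox10.

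Among 18 partner factors and cofactors of SOX proteins, 1 was called at 1 h (3.51% of all genes), and at 6 h against 0 h 4 were higher and 6 lower (34.9% of all genes). At 1 h Pou3f1, a POU-domain partner of SOX proteins, fell by 0.52 on the log2 scale (SE 0.07, adjusted p = 0.00109, and adjusted p = 1.0 without the block). At 6 h Nfib fell by 0.45 (SE 0.05, adjusted p = 1.09e-05, and adjusted p = 0.027 without the block), Lhx2 by 0.32 and Pou3f2 by 0.28, while Pou2f1 rose by 0.43 and Chd7 by 0.29. Without the block the last 4 were not called (adjusted p = 0.719, 0.349, 0.168 and 0.28). Nfia, which acts with Sox9 in glial induction, had a log2 fold change of 0.08 (adjusted p = 0.298). The direction was thus mixed in this list, and the median at 6 h was 0.06 on the log2 scale.

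Genes reported elsewhere as targets of SOX factors were read in the same way. Of 16 SOXE targets tested, none was called at 1 h by edgeR, with or without the block, or by DESeq2, and 3 had an unadjusted p under 0.05. Of all genes only 3.51% were called at 1 h with the block. At 6 h against 0 h, 6 were called higher and 1 lower, beside 34.9% of all genes called in either direction, and the median was 0.15 on the log2 scale. Cspg4, the NG2 proteoglycan of oligodendrocyte progenitors, rose from 65.9 ± 10.2 CPM to 174 ± 19.9 CPM (log2 1.41, SE 0.06, adjusted p = 1.06e-08), also without the block (adjusted p = 0.00672). Mmd2 rose by 0.58 on the log2 scale, Slc1a3 by 0.31 and Pdgfra by 0.31, with adjusted p between 0.000248 and 0.00294 and none called without the block. The 1 lower gene was Fgfr3 (log2 fold change -0.21, adjusted p = 0.0124, and adjusted p = 0.738 without the block), named after its value was seen. The oligodendrocyte progenitor marker sum, which holds Cspg4 and Pdgfra too but is mostly Olig1 and Olig2, was higher at 6 h, as given above.

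Of 14 SOXC targets tested, none was called at 1 h by edgeR or DESeq2, with 1 at an unadjusted p under 0.05, beside 3.51% of all genes called with the block. At 6 h against 0 h, 5 were higher and 1 lower, beside 34.9% of all genes called. Tubb3, a neuronal tubulin, went from 3.76 ± 1.52 CPM to 7.83 ± 3.00 CPM (log2 1.06, SE 0.09, adjusted p = 2.07e-06, and adjusted p = 0.243 without the block). Elavl3, a neuronal RNA-binding protein, went from 9.20 ± 1.24 CPM to 16.8 ± 2.67 CPM (log2 0.87, SE 0.07, adjusted p = 1.01e-06, and adjusted p = 0.0405 without the block). Hes5 rose by 0.68, Rnd2 by 0.47 and Dbn1 by 0.35, and Sema3c was the gene called lower (-0.28, named after its value was seen). Without the block these 4 were not called (adjusted p = 0.712, 0.276, 0.0872 and 0.371). Dcx, a marker of neuroblasts, was near 1 CPM with a log2 fold change of -0.35 (adjusted p = 0.291). The neuronal marker sum, which holds Tubb3 too, was higher at 6 h, mostly through Syt1, as given above.

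Of 16 SOXB1 targets tested, 1 was called at 1 h, beside 3.51% of all genes, and 10 at 6 h against 0 h, 4 higher and 6 lower, beside 34.9%. At 1 h Cdkn1a, the cell cycle inhibitor p21, rose by 0.30 on the log2 scale (SE 0.05, adjusted p = 0.00249, and adjusted p = 1.0 without the block). At 6 h Nes, the intermediate filament of NSCs, went from 1986 ± 395 CPM to 1478 ± 344 CPM (log2 fold change -0.43, SE 0.05, adjusted p = 3.17e-05, and adjusted p = 0.372 without the block). Fos fell by 0.65 and Socs3 by 0.48, while Hes5 rose by 0.68, Notch1 by 0.33 and Egfr by 0.21. No gene of this list was called at 6 h by edgeR without the block, where 13 of the 16 had an unadjusted p under 0.05 with it and DESeq2 without the block called 1.

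Several members share their locus with a non-coding gene. Sox2 lies inside Sox2ot (chr3:34104270-34682619, the same strand, no exon bases in common), which was at 80.2 ± 12.4 CPM at 0 h, 80.3 ± 11.6 CPM at 1 h and 65.6 ± 10.1 CPM at 6 h. Sox2ot fell by 0.29 on the log2 scale at 6 h (SE 0.05, adjusted p = 0.00126, and adjusted p = 0.412 without the block), while Sox2 was not called. Sox1 lies inside Sox1ot, which was at 8.42 ± 2.33 CPM at 0 h and 8.22 ± 3.76 CPM at 6 h and was not called.

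Exons of 4 members overlap those of a gene on the opposite strand. The strand setting of the counting was not given in the sources used here, so reads of such partners may not be told apart. Gm4675 shares 713 bases with Sox21 (18.77% of its exon length) and, like Sox21, fell at 6 h against 0 h (log2 fold change -0.57, SE 0.14, adjusted p = 0.00557, and adjusted p = 0.24 without the block), at only 2.31 ± 0.271 CPM at 0 h. The antisense gene 2810468N07Rik shares 329 bases with Sox8 (10.55%) and was at 8.32 ± 0.6 CPM at 0 h, 9.50 ± 1.41 CPM at 1 h and 11.1 ± 1.06 CPM at 6 h. It rose by 6 h (log2 0.42, SE 0.08, adjusted p = 0.00127, and adjusted p = 0.167 without the block), and at 1 h, where Sox8 fell, its log2 fold change was 0.18 (adjusted p = 0.253). Gm26735 shares 2616 bases with Sox4 (54.56%) and Sox5os1 shares 1330 bases with Sox5 (9.25%), but over all 9 libraries together they held only 3 and 10 counts.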

How the data were processed

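The authors deposited raw counts of reads per Ensembl gene for 9 libraries (stranded mRNA kit, paired-end reads). Per the labels, these were made with STAR 2.5.3a on mm10 (GRCm38), with FastQC for read quality and DESeq2 1.22.1 for the study's comparisons, and the deposited counts are not normalised. The strand setting and the annotation release of the counting were not given in the sources used here. GENCODE M21 supplied symbols, exon lengths and transcript sequences, and 48144 of 48526 identifiers matched it.

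Tests were run with edgeR 4.0.16, DESeq2 1.42.0 and limma 3.58.1 under R 4.3.3. Summaries and figures used numpy 2.4.6, pandas 2.3.3 and, for plots, matplotlib 3.10.9 (Python 3.11.15). Genes were kept with filterByExpr (minimum count 10, minimum total 15), libraries were scaled with TMM, and all 9 were fitted with time point and replicate number in the quasi-likelihood test of edgeR. P-values were adjusted by Benjamini-Hochberg over 18858 genes (threshold 0.05), and the code was tested on simulated data. CPM are relative to the TMM-scaled library total, and CPM per kilobase uses the union of a gene's exons. Standard errors of log2 fold changes come from the F statistic. Replicates 1 to 3 were the letters B, C and D in the labels, in that order. After removal of time point means, libraries with the same replicate number correlated between 0.733 and 0.8 (9 pairs). Others correlated between -0.462 and -0.314 (18 pairs), values that removal of the means itself pushes below 0. The samples were therefore paired by these numbers. What libraries with the same number share is not stated. The study's methods name no block, so the fit without it is an alternative. The smallest chi-square per degree of freedom between libraries was 12.5, so no library was entered again. The HMG box was the run around the common 10 residues, within 100 residues, that maximised mean identity above 40%. Samples were grouped by the time in the labels. The alternatives were DESeq2, no block, other scalings, filters, thresholds and lengths, removal of GC and length trends, fits of 6 libraries and leaving out each library. Genes named from a list were the 5 called with the largest absolute log2 fold change and 1 direction in 3 of 3 replicates, beside a few fixed names, and 1 of the genes so chosen is not reported here. The genes most like a member were the 3 highest correlations among genes of at least 10 CPM. The members and lists were chosen with earlier results of these data known.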

Additional observations from a re-analysis of the deposited data

How the results depend on the processing

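The number of SOX members called at 1 h, at 6 h against 0 h and at 6 h against 1 h was 4, 7 and 4 with the replicate block. It was 0, 2 and 1 with no replicate block, and 2, 2 and 2 with DESeq2 and no block. Over the other alternatives, leave-one-out fits included, it stayed between 3 and 5, 5 and 7, and 4 and 5. Of all tested genes 661, 6581 and 6710 were called with the block, 8, 456 and 404 without it, and 72, 1503 and 1432 by DESeq2 without it. At an adjusted p under 0.01 the counts were 240, 4270 and 4246, and with no filter on low counts 1369 at 1 h. Leaving out 1 library gave 213 to 886 genes at 1 h, lowest without 0 h replicate 2 and highest without 6 h replicate 3, and 4350 to 8051 at 6 h against 0 h, lowest without 0 h replicate 2. A fit of fewer libraries has fewer degrees of freedom.

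Log2 fold changes that changed sign belonged to members that were not called in that comparison. At 1 h Sox3 was at -0.0048 with library totals, -0.15 with GC and length trends removed and -0.0532 to 0.0493 with 1 library left out, Sox6 at -0.18 to 0.00034 with 1 left out, and Sox11 at 0.0639 with the trends removed and -0.0313 to 0.0245 with 1 left out. At 6 h against 0 h Sox2 was at -0.0052 to 0.12 and Sox11 at -0.0284 to 0.0457 with 1 left out. At 6 h against 1 h Sox2 was at -0.14 to 0.0013, Sox4 at -0.0511 to 0.13 and Sox11 at -0.0201 to 0.0536 with 1 left out, and with the trends removed Sox4 was at -0.0068 and Sox11 at -0.0117. The causes were not tested. Of the log2 fold changes under the alternatives, 511 kept direction and call, 38 lost the call, 3 gained it and 18 changed sign. The gains were Sox21 at 1 h with no filter (0.20), Sox3 at 6 h against 0 h (-0.22) and Sox1 at 6 h against 1 h (-0.20), both with the trends removed. The shares of Sox4 and Sox8 in their groups, and the rank of Sox6, moved with the length used, as given with those values. Depth did not leave any member near the filter.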
